A study of Homo sapiens with 9 samples.

Results

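The 4 HOX gene clusters of the human genome were examined in a map of chromatin occupancy by zfp148 (ZBP-89) and zfp281 (ZBP-99), a pair of related zinc finger proteins. The clusters were taken as 4 windows of hg19: HOXA at chr7:27130000-27290000, HOXB at chr17:46600000-46830000, HOXC at chr12:54320000-54460000 and HOXD at chr2:176940000-177070000. The windows span 160, 230, 140 and 130 kb, or 660 kb together, which is 0.0244% of the 2700 Mb effective genome size in the file headers. They hold 38 HOX genes as members, 10 in HOXA, 10 in HOXB, 9 in HOXC and 9 in HOXD. Of 316415 peaks in 9 peak lists, 632 overlapped a window, 104 in HOXA, 250 in HOXB, 230 in HOXC and 48 in HOXD. The windows were chosen by the positions and numbers of the peaks they hold in these same lists, so peak numbers in them are given as a description and without a test.

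The data are chromatin immunoprecipitation with sequencing (ChIP-seq) in K562, a human erythroleukaemia line, cultured for 48 h with hemin, which drives the cells towards the red cell lineage. All groups carried BirA, a bacterial ligase that attaches biotin to a short acceptor peptide. The control group had BirA and no tagged protein, and the bio-zfp148 and bio-zfp281 groups in addition carried zfp148 or zfp281 with a 23-amino-acid acceptor peptide, so that chromatin was recovered on streptavidin. Each group had 2 ChIP libraries and 1 input library, and the authors called peaks in each library and again in both libraries of a group together (the pooled lists). The tagged proteins came from stably introduced constructs in clones picked for levels near those of the cells' own proteins. BirA cells are the control for chromatin that binds the beads without a tagged protein. A place without a BirA peak is not shown to be free of such binding. Nothing in the labels says that the 2 libraries of a group came from separate cultures.

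HOX genes encode homeodomain transcription factors that give cells their position along the head-to-tail axis of the embryo, and within a cluster the order of the genes follows the order in which they are used along that axis. In blood formation several of them, such as HOXA9 and HOXB4, act in stem and progenitor cells and are turned down as cells mature. Clusters are known to be held silent by Polycomb complexes and kept active by trithorax proteins such as KMT2A, and their gene-dense DNA is rich in CpG islands. Both zfp148 and zfp281 are known to bind G-rich DNA.

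The genes are listed here by where their spans begin, from the low-coordinate end of each window. In HOXA the order is HOXA2, HOXA3, HOXA4, HOXA5, HOXA6, HOXA7, HOXA9, HOXA10, HOXA11 and HOXA13. In HOXB it is HOXB1, HOXB2, HOXB3, HOXB4, HOXB5, HOXB6, HOXB7, HOXB8, HOXB9 and, at some distance, HOXB13. HOXC and HOXD run the other way, with the genes of the posterior body first. In HOXC the list is HOXC13, HOXC12, HOXC11, HOXC10, HOXC9, HOXC8 and then HOXC4, HOXC5 and HOXC6. The spans of HOXC4, HOXC5 and HOXC6 overlap, so where they begin does not give the order of these genes along the cluster. In HOXD the list is HOXD13, HOXD12, HOXD11, HOXD10, HOXD9, HOXD8, HOXD4, HOXD3 and HOXD1. This order is that of the GRCh38.p14 RefSeq table, while the peaks are in hg19 coordinates. For that reason no peak was assigned to a gene, and peaks are placed by their distance from the low-coordinate end of the window.

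The sequence before the start of HOX genes was searched for 2 G-rich strings, GGGAGGG and GGGGNGGGG, on both strands, because both proteins are known for binding such DNA. The RefSeq table of promoters (GRCh38.p14) matched 20 of the 38 HOX genes with 27 promoters, since some genes have several. In the 250 bases before the start, GGGAGGG stood in 7 of the 27 (25.9%), against 24.7% of 35116 promoters of all genes. GGGGNGGGG stood in 6 (22.2%, against 24.2% of all), and either in 9 (33.3%, against 36.4%), and matches of the strings may overlap. The share in HOX promoters thus lay near that of all promoters, in both strings. By cluster, either string stood in 4 of 16 HOXA promoters, 0 of 1 HOXB promoter, 2 of 2 HOXC promoters and 3 of 8 HOXD promoters. HOXC4 and HOXC5 have the same start in this table and so count the same bases for both. The 3 sequences below show how the strings lie in the HOXA4 (minus strand, chr7:27130758-27131007), HOXC4 (plus strand, chr12:54016638-54016887) and HOXD13 (plus strand, chr2:176092471-176092720) promoters. HOXA4 had the most matches of the HOX promoters, HOXC4 stands for the cluster with the most peaks per Mb, and HOXD13, known for its part in shaping the digits, for the cluster with the fewest. Capitals mark the bases of a match, with CCCTCCC marking GGGAGGG on the other strand. All 3 positions are of GRCh38.p14 and cannot be set against the hg19 peak positions, so no peak is placed at them.
HOXA4: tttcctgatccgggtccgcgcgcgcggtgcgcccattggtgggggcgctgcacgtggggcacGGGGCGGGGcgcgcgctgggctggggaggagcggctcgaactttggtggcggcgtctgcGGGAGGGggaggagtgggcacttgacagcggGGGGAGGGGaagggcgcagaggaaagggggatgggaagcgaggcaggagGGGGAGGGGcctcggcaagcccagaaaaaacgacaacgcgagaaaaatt
HOXC4: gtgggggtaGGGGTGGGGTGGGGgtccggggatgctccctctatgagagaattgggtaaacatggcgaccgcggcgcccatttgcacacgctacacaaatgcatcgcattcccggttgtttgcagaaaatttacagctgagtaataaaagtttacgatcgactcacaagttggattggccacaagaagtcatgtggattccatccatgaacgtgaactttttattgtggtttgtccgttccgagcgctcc
HOXD13: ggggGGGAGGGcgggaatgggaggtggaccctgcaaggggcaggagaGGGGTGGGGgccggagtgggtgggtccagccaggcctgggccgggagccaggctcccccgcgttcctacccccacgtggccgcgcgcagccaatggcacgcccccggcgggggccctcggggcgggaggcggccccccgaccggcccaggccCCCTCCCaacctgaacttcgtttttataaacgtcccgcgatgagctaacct
HOXA4 held 6 matches, which lie in 4 separate runs of capitals because matches overlap. In HOXC4 the 2 matches share bases in 1 run near the far end, and the remaining bases hold none. In HOXD13 there were 3 matches, 1 of them on the other strand close to the start.

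Both tagged proteins had most peaks per Mb in HOXC, followed by HOXB, with HOXA and HOXD lower. In the pooled bio-zfp148 list, 15 peaks lay in HOXA, 45 in HOXB, 43 in HOXC and 10 in HOXD, 113 in all. Per Mb these were 93.8 in HOXA (exact Poisson 95% interval 52.5 to 155), 196 in HOXB (143 to 262), 307 in HOXC (222 to 414) and 76.9 in HOXD (36.9 to 141), where the whole list has 16.4. The interval of HOXC lies above those of HOXA and HOXD without overlap, while those of HOXB and HOXC overlap, as do those of HOXA and HOXD. The intervals cover counting error only, and neighbouring peaks are not independent.

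In the pooled bio-zfp281 list, 26 peaks lay in HOXA, 54 in HOXB, 51 in HOXC and 10 in HOXD, 141 in all. They came to 162 per Mb in HOXA (106 to 238), 235 in HOXB (176 to 306), 364 in HOXC (271 to 479) and 76.9 in HOXD (36.9 to 141), against 25.3 over the whole list. Relative to its own list, each cluster was denser in peaks, from HOXA to HOXD by 5.73, 12.0, 18.8 and 4.70 times where bio-zfp148 was pulled down and by 6.42, 9.28, 14.4 and 3.04 times with bio-zfp281. The proteins thus had the same order of clusters, and neither list gives a signal where no peak was called. Pooled bio-zfp148 peaks covered 5.33, 14.6, 22.9 and 3.56% of the 4 windows and pooled bio-zfp281 peaks 9.60, 18.0, 27.9 and 3.38%.

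The single libraries had the same split. HOXA, HOXB, HOXC and HOXD held 8, 20, 20 and 6 peaks in bio-zfp148 replicate 1 and 6, 31, 31 and 4 in replicate 2. In bio-zfp281 they held 13, 36, 28 and 4 peaks in replicate 1 and 4, 17, 21 and 0 in replicate 2. HOXC was the densest cluster per Mb in each of these 4 libraries, at 143 and 221 peaks per Mb for the bio-zfp148 libraries and 200 and 150 for those of bio-zfp281. HOXD had the lowest density in all 4, from 46.2 per Mb down to the 0 peaks of bio-zfp281 replicate 2, which allow up to 28.4 per Mb (exact Poisson 95% limit). HOXB and HOXC both lay above HOXA and HOXD in all 6 lists of tagged proteins, and in 34 of 36 combinations of list and setting tried. The 2 exceptions both needed a fold enrichment of at least 10, in bio-zfp281 replicate 1 (37.5, 30.4, 50.0 and 23.1 peaks per Mb) and in replicate 2, where a single HOXC peak (7.14 per Mb) was left. In the pooled bio-zfp281 list the lower of HOXB and HOXC was 1.44 times the higher of HOXA and HOXD, and 1.09 times at that fold enrichment.

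BirA cells, which have no tagged protein, also had peaks in the 4 clusters. Both BirA libraries had HOXB and HOXC above HOXA and HOXD per Mb, as the tagged proteins did, and the pooled BirA list did not. From HOXA to HOXD there were 12, 23, 13 and 5 peaks in BirA replicate 1, 1, 4, 9 and 2 in replicate 2, and 19, 20, 14 and 7 in the pooled list. The pooled list came to 119 (71.5 to 185), 87.0 (53.1 to 134), 100 (54.7 to 168) and 53.8 (21.6 to 111) per Mb, with 20.9 over the whole list, and all 4 intervals overlap. BirA replicate 1, with 15956688 tags left after the removal of duplicates, was 3.07, 4.09, 3.80 and 1.57 times as dense in the clusters as over its whole list. BirA replicate 2, with 1080363 tags, was 2.16, 6.01, 22.2 and 5.31 times as dense, so its HOXC figure, from 9 peaks, lies within the range of the tagged proteins. Over all settings tried in the 3 BirA lists, that split held in 9 of 18 combinations of list and setting, and 3 of the other 9 left no peak in any window. The libraries of tagged proteins had 810565 to 1570283 tags, and the part of depth in these counts was not tested.

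**Figure D1:**
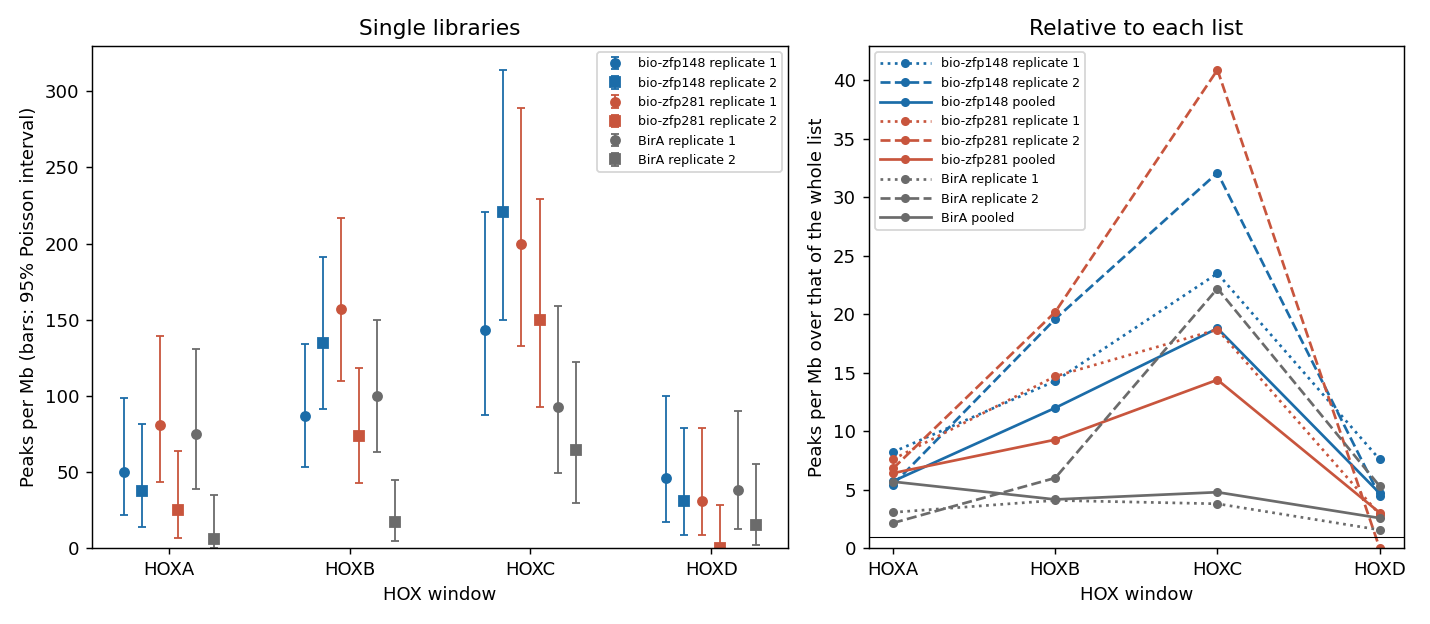
Peaks in the 4 HOX windows. On the left, peaks per Mb in each of the 6 libraries (circles replicate 1, squares replicate 2; bars are exact Poisson 95% intervals); on the right, the same density divided by that of the whole list for all 9 lists, with a line at 1. HOXC is highest in each list of a tagged protein and in BirA replicate 2, while BirA replicate 1 and the pooled BirA list stay between 1.57 and 5.69.

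Tags under the peaks were summed over each window and not divided by its length, so they are compared between libraries and not between clusters. Scaled to 1000000 filtered tags of the library, peaks in HOXC held 343 tags in replicate 1 and 337 in replicate 2 of bio-zfp148, where bio-zfp281 had 367 and 280 and BirA 15.9 and 58.3. In HOXB they held 365 and 387 for bio-zfp148, with 383 and 200 for bio-zfp281 and 45.4 and 35.2 for BirA. All 4 libraries of tagged proteins lay above both BirA libraries in these clusters. In HOXA bio-zfp148 had 64.2 and 39.4, bio-zfp281 104 and 26.5, and BirA 15.0 and 5.55, again with the tagged proteins higher. In HOXD bio-zfp148 had 40.7 and 20.7, bio-zfp281 22.3 and 0, and BirA 7.27 and 10.2, so that the bio-zfp281 and BirA libraries overlapped there. Such sums grow with how much was called, and BirA replicate 1 was filtered to at most 2 tags per position where the other libraries kept 1.

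Peaks were denser inside the windows than in the 250 kb on either side. For bio-zfp148 pooled peaks, the flanks held 16.0 peaks per Mb at HOXA, 50.0 at HOXB, 74.0 at HOXC and 12.0 at HOXD, and the windows 5.86, 3.91, 4.15 and 6.41 times as many. For bio-zfp281 the windows held 9.03, 3.45, 4.24 and 12.8 times the density of their flanks, and for BirA 5.40, 1.74, 1.79 and 2.69 times. The surroundings of HOXB and HOXC were thus themselves rich in peaks, and relative to their flanks HOXA and HOXD stood out more than HOXB and HOXC. At the edges of the windows, the first and last bio-zfp148 peaks inside had fold enrichments of 10.6 and 6.65 in HOXA, 22.7 and 31.9 in HOXB, 46.1 and 12.4 in HOXC, and 40.1 and 12.4 in HOXD. The nearest peaks outside had 4.17 and 7.09, 6.65 and 6.86, 7.98 and 12.0, and 20.3 and 7.42, at distances of 2.09 to 233 kb. The low edge of HOXB cuts through a bio-zfp148 peak at chr17:46599372-46600104, whose summit lies at -0.379 kb, just outside.

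Within a window the peaks were not spread evenly. In HOXB, 39 bio-zfp148 and 41 bio-zfp281 pooled peaks had their summits in the first 120 kb, from the end at which HOXB1 comes first, and 5 and 13 in the rest, towards the end of HOXB13, a gene known from the prostate. BirA had 18 and 2 peaks in those stretches. In HOXC, 41 and 50 peaks lay in the first 120 kb and 2 and 1 in the last 20. In HOXA no bio-zfp148 peak, 6 bio-zfp281 and 4 BirA peaks lay beyond 110 kb, and in HOXD no peak of either protein did. These stretches were chosen after the positions had been seen. The median gap between neighbouring peaks of either protein was 1.83 kb in HOXA, 0.991 in HOXB, 0.827 in HOXC and 7.07 in HOXD. The longest run without a peak was 27.6, 19.4, 9.95 and 29.9 kb.

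**Figure D2:**
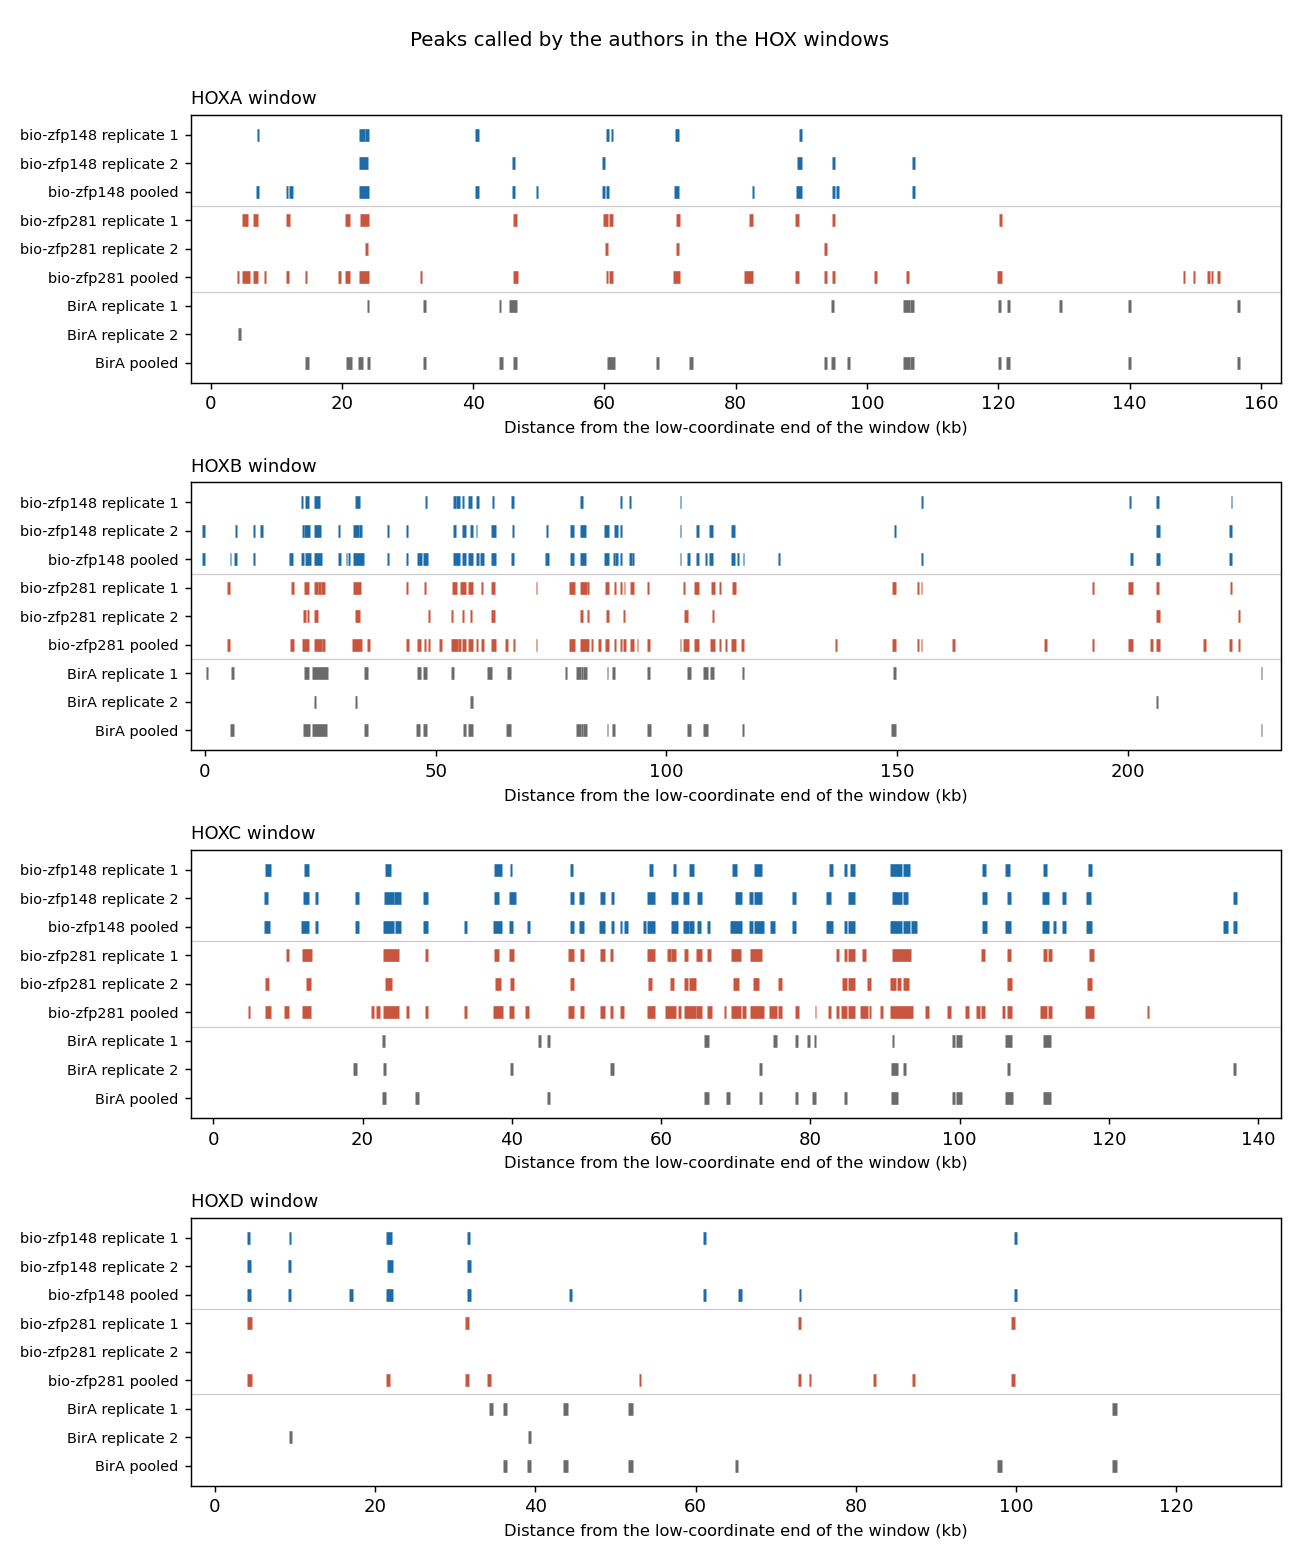
Peaks of the 9 lists along the 4 HOX windows, by distance in kb from the low-coordinate end (each bar spans 1 peak; blue bio-zfp148, red bio-zfp281, grey BirA). Joined where they overlap, peaks make 65 places in HOXB and 62 in HOXC. All 4 libraries of tagged proteins have a peak at 8 and 14 of these. bio-zfp281 replicate 2 has no peak in HOXD, and the high-coordinate parts of HOXA and HOXB are thin in bio-zfp148 peaks.

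Taken over the 4 clusters together, replicates shared more of their peaks than over their whole lists, but not in every cluster. In bio-zfp148, 41 of 54 replicate 1 peaks (75.9%) overlapped a replicate 2 peak by at least 1 bp, against 52.9% of the whole list, and 42 of 72 (58.3%) the other way, against 46.5%. In bio-zfp281, 33 of 81 replicate 1 peaks (40.7%, whole list 25.0%) overlapped a replicate 2 peak, and 35 of 42 (83.3%, whole list 73.0%) the other way. From replicate 1 to replicate 2, bio-zfp148 shared 3 of 8 peaks in HOXA (37.5%), 15 of 20 in HOXB, 19 of 20 in HOXC and 4 of 6 in HOXD, and bio-zfp281 3 of 13 (23.1%), 14 of 36, 16 of 28 and 0 of 4. From replicate 2 to replicate 1, bio-zfp148 shared 2 of 6 (33.3%), 17 of 31, 19 of 31 and 4 of 4, and bio-zfp281 3 of 4 (75.0%), 15 of 17 and 17 of 21, with no HOXD peak. HOXA thus lay below the whole list in 3 of the 4 directions and HOXB and HOXC above it in all 4. In BirA, 4 of 53 replicate 1 peaks (7.55%, whole list 2.79%) and 4 of 16 replicate 2 peaks (25.0%, whole list 24.1%) were shared, and 4 of the 60 pooled peaks had a peak in both replicates, against 3.19% of the pooled list.

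Of the pooled bio-zfp148 peaks, 42 of 113 overlapped a peak in both replicates (37.2%, exact Clopper-Pearson 95% interval 28.3 to 46.8), where 19.3% of the list did. By cluster these were 2 of 15 in HOXA, 16 of 45 in HOXB, 20 of 43 in HOXC and 4 of 10 in HOXD. For bio-zfp281 it was 32 of 141 (22.7%, 16.1 to 30.5), against 10.3%, with 3 of 26, 13 of 54, 16 of 51 and 0 of 10. The shares over all 4 clusters were higher than in the whole lists, while those of HOXA in bio-zfp148 and HOXD in bio-zfp281 were not. The intervals treat neighbouring peaks as independent, which they are not, and the comparison is a description. Peaks of both tagged proteins in the clusters were also stronger than the median peak of their list. In bio-zfp148 the median fold enrichment over local background was 17.7 against 11.2, and in bio-zfp281 9.30 against 6.04. In BirA it was about that of its list, 8.19 against 8.10. The part of this strength in the shares above was not tested.

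BirA peaks lay at many of these places. Of the HOX peaks, 40 of 113 in bio-zfp148 (35.4%, background 23.0%) and 47 of 141 in bio-zfp281 (33.3%, background 22.4%) overlapped a peak of any of the 3 BirA lists. At an FDR of at most 5%, BirA replicate 1 and the pooled BirA list had 0 peaks in the windows, and the shares were 13.0% and 8.09%. No background share was computed at that setting. Among peaks found in both replicates, the clusters differed. At the authors' threshold, in HOXB a BirA peak overlapped 10 of 16 such bio-zfp148 peaks and 12 of 13 such bio-zfp281 peaks (92.3%, 64.0 to 99.8), and in HOXC 7 of 20 and 6 of 16. Over all 4 clusters this was 19 of 42 (45.2%) for bio-zfp148, where 42.7% of the list's such peaks were, and 20 of 32 (62.5%) for bio-zfp281, against 51.0%. Read from the control, 29 of 60 pooled BirA peaks in the clusters overlapped a pooled bio-zfp148 peak (48.3%, background 12.9%) and 37 a pooled bio-zfp281 peak (61.7%, background 19.6%). In HOXB this held for 15 and 17 of 20 BirA peaks. In HOXD it held for 0 of 7 with either protein (0 to 41.0%), an interval that holds both backgrounds. With BirA replicate 2 alone, the shares of bio-zfp148 and bio-zfp281 peaks that overlapped BirA were 12.4% (background 9.07%) and 7.80% (background 7.55%). The bio-zfp281 share thus lay near its background there. With BirA replicate 1 alone they were 23.9% (background 14.3%) and 22.7% (background 14.7%). For the peaks of bio-zfp281 replicate 2 alone the share was 57.1%, for which no background was computed.

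Peaks in both replicates of a protein and free of any BirA peak, here called sites, were most numerous in HOXC. There were 23 bio-zfp148 sites (20.4% of its HOX peaks, 13.4 to 29.0, background 11.1%), with 1 in HOXA, 6 in HOXB, 13 in HOXC and 3 in HOXD. There were 12 bio-zfp281 sites (8.51%, 4.48 to 14.4, background 5.07%), with 1, 1, 10 and 0. As shares of each cluster's peaks, from HOXA to HOXD, sites made 6.67, 13.3, 30.2 and 30.0% for bio-zfp148. For bio-zfp281 they made 3.85, 1.85, 19.6 and 0%. By share, HOXD thus matched HOXC in bio-zfp148, from 10 peaks, while HOXA lay below background in both proteins. HOXB, with about as many peaks as HOXC, kept fewer sites. That order depended on the BirA lists and the strength asked for. With no BirA peaks removed, HOXB and HOXC held 16 and 20 bio-zfp148 and 13 and 16 bio-zfp281 peaks found in both replicates. With BirA replicate 1 left out, they held 12 and 14 bio-zfp148 sites. At a fold enrichment of at least 10, HOXB held 5 and HOXC 2 bio-zfp148 sites. Leaving out bio-zfp281 replicate 2, replicate 1 alone gave the peaks and no support from another replicate was asked for. HOXB then had 19 and HOXC 18 of 47 bio-zfp281 peaks free of BirA. The 12 bio-zfp281 sites became 23 without BirA replicate 1 and 20 without BirA replicate 2. With bio-zfp148 replicate 1 left out, and so no replicate support asked for, 42 bio-zfp148 peaks of replicate 2 were free of BirA.

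**Figure D3:**
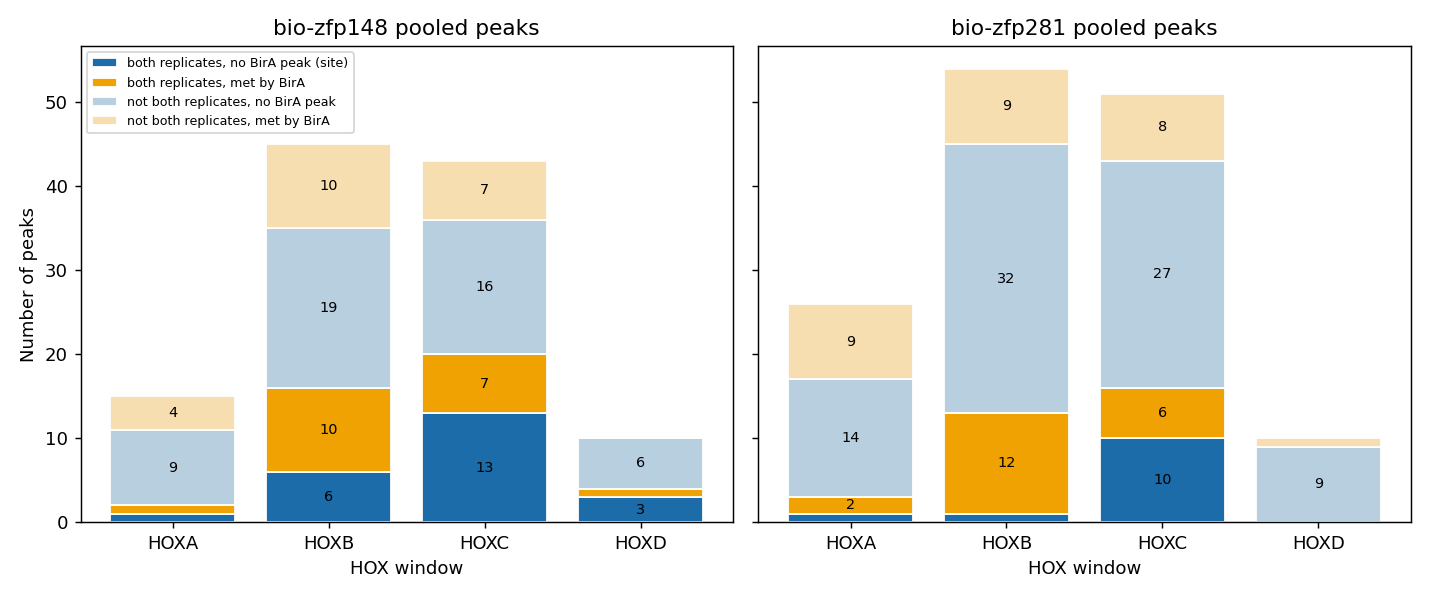
Number of pooled peaks in each HOX window by support, for bio-zfp148 (left) and bio-zfp281 (right). Dark blue bars are sites (both replicates, no BirA peak), orange bars are peaks in both replicates that overlap a BirA peak, and pale bars are peaks not found in both replicates; segments of 1 peak carry no number. HOXC holds 13 and 10 sites, while in HOXB 10 and 12 peaks of both replicates overlap a BirA peak.

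Where the proteins were compared with each other, HOX clusters shared more than the rest of the lists. Of bio-zfp148 peaks, 83 of 113 (73.5%) overlapped a pooled bio-zfp281 peak, against 49.4% of the list, and of bio-zfp281 peaks 77 of 141 (54.6%) overlapped a bio-zfp148 peak, against 32.0%. From HOXA to HOXD the counts were 9 of 15 (60.0%), 34 of 45 (75.6%), 35 of 43 (81.4%) and 5 of 10 (50.0%) for bio-zfp148. For bio-zfp281 they were 9 of 26 (34.6%), 31 of 54 (57.4%), 32 of 51 (62.7%) and 5 of 10 (50.0%). HOXD in bio-zfp148 and HOXA in bio-zfp281 thus lay near the whole list. Each of the 23 bio-zfp148 sites overlapped a pooled bio-zfp281 peak (background 89.0%). Of those sites, 10 overlapped a bio-zfp281 site, against 41.3% of all bio-zfp148 sites, and all 10 were among the 13 of HOXC. From the bio-zfp281 side, 9 of 12 sites overlapped a bio-zfp148 site, against 57.7%, and these 9 were among the 10 of HOXC. A pooled bio-zfp148 peak overlapped 10 of the 12 (background 86.3%). The 73.5% became 30.1% when bio-zfp281 replicate 1 was left out, and the 54.6% became 34.0% without bio-zfp148 replicate 2 and 83.3% without bio-zfp281 replicate 1. No background shares were computed with a replicate left out here.

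Merged where they overlapped, the peaks of all lists made 187 places, 38 in HOXA, 65 in HOXB, 62 in HOXC and 22 in HOXD. A place can join several peaks, so summits of BirA and of a protein within it may lie apart. Both proteins without BirA were called at 43 places (5, 14, 19 and 5 from HOXA to HOXD), and both proteins with BirA at 32 (4, 17, 11 and 0). bio-zfp281 alone had 47 places (10, 17, 16 and 4), bio-zfp148 alone 23 (3, 10, 6 and 4), BirA alone 25 (9, 3, 6 and 7), and 17 (7, 4, 4 and 2) joined 1 protein with BirA. Only peaks that reach into a window entered these places, so the place at the low edge of HOXB counts as bio-zfp148 alone, although a pooled bio-zfp281 peak at chr17:46599410-46599847, 0.153 kb outside the window, overlaps the same bio-zfp148 peak. HOXD thus had no place with both proteins and BirA, and BirA stood alone at 7 of its places. BirA peaks apart from the proteins are common, however. Over the whole pooled BirA list, 12.9% overlapped a pooled bio-zfp148 peak and 19.6% a pooled bio-zfp281 peak. All 4 libraries of tagged proteins had a peak at 24 places, 2 in HOXA, 8 in HOXB, 14 in HOXC and 0 in HOXD. At 9 of the 24, all in HOXC, there was no BirA peak, and the 2 in HOXA and 8 in HOXB all had one. Places were made only in the windows. The place counts therefore have no background over the whole lists and are not shown to differ from it.

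At the 74 places in both pooled lists, fold enrichments of bio-zfp148 and bio-zfp281 rose together, with a Spearman rho of 0.55 (0.45 over the 9 in HOXA, 0.60 over 30 in HOXB and 0.65 over 30 in HOXC). These places share libraries and are not independent, so no p is given. Their summits lay a median of 63.0 bp apart, 50 of the 74 within 100 bp. Neither rho nor summit distance was computed over the whole lists, so neither is shown to be particular to the clusters.

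**Figure D4:**
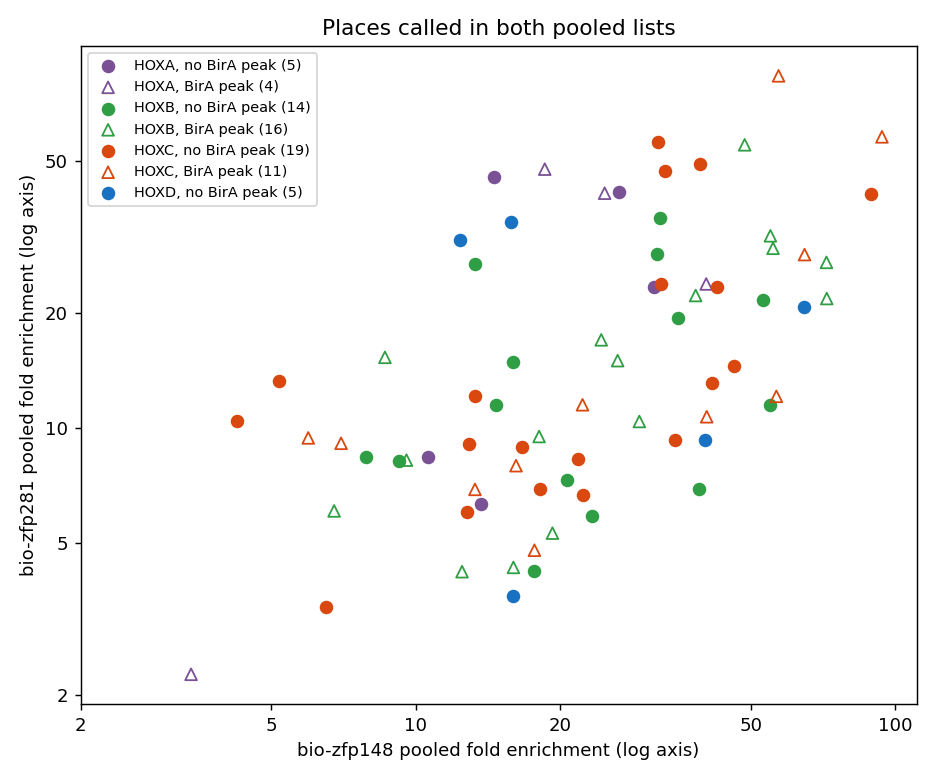
Fold enrichment in the pooled bio-zfp148 list (x, log axis) against the pooled bio-zfp281 list (y, log axis) at the 74 places called in both, coloured by cluster. Open triangles are places that also hold a BirA peak. The values rise together (Spearman rho 0.55), and the top place of each protein in HOXA, HOXB and HOXC is a triangle.

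HOXC held the strongest peaks of both proteins. At chr12:54342609-54345118 bio-zfp148 reached its highest fold enrichment in the clusters, 94.0 in the pooled list, 21.9 in replicate 1 and 31.7 in replicate 2. At the same place bio-zfp281 had 57.7 pooled, 28.7 and 9.24, and BirA 14.5 pooled, 12.5 and 4.10. The highest bio-zfp281 value, 83.3 over 349 tags, stood at chr12:54410622-54414302, with 31.0 and 13.7 in the replicates. bio-zfp148 had 57.2 pooled, 17.0 and 12.0 there, and BirA 5.91 pooled, 4.22 and 4.97. Both places were called in all 9 lists, BirA included, and only 2 others were, chr12:54426088-54427091 (64.8 for bio-zfp148, 28.4 for bio-zfp281 and 16.0 for BirA, pooled) and chr17:46623188-46626742 in HOXB (24.4, 17.0 and 5.81). Pooled summits of BirA, bio-zfp148 and bio-zfp281 were 54342858, 54343518 and 54343561 at chr12:54342609-54345118. They were 54411156, 54412684 and 54412675 at chr12:54410622-54414302, and 54426535, 54426567 and 54426573 at chr12:54426088-54427091. In the HOXB place they were 46624523, 46623984 and 46623914.

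Among places with sites of both proteins, bio-zfp148 was highest at chr12:54331795-54333180, 12.5 kb from the end of the HOXC window at which HOXC13, a gene known for hair and nails, comes first in the order. bio-zfp148 had a fold enrichment of 89.3 over 81 tags in the pooled list, 26.4 and 37.2 in the replicates. bio-zfp281 had 40.9 over 94 tags, 17.6 and 3.82, and was itself higher at 2 other such places, chr12:54367543-54368320 (56.1) and chr12:54389234-54390796 (46.9). No BirA list had a peak there, and the summits of the proteins were 54332612 and 54332599. The other HOXC places with sites of both had their summits 38.2 to 117 kb from the low end, and the highest pooled fold enrichments at each were 12.9 to 42.5 for bio-zfp148 and 6.91 to 56.1 for bio-zfp281. A further 3 HOXC sites were of bio-zfp148 without a bio-zfp281 site, starting at 54326798 (46.1), 54402163 (22.3) and 54422973 (41.5), and 1 was of bio-zfp281 alone, starting at 54406658 (4.53).

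In HOXB the strongest places also held BirA peaks, though not always with summits near those of the proteins. bio-zfp148 was highest at chr17:46656910-46658207, with 72.1 over 246 tags pooled and 14.8 and 22.5 in the replicates, where bio-zfp281 had 21.8 pooled, 9.81 and 1.64, and BirA 4.55 pooled and 2.70 in replicate 2. Next to it, chr17:46653312-46656646 had 72.0 for bio-zfp148, 27.1 for bio-zfp281 and 6.80 for BirA, pooled. bio-zfp281 was highest at chr17:46661125-46663153, with 55.0 pooled, 20.7 and 7.50, where bio-zfp148 had 48.6 pooled, 13.0 and 17.9, and of the BirA lists only replicate 1 had a peak (4.82). All 3 lay between 55.0 and 62.1 kb from the low end. The pooled BirA summit lay near that of bio-zfp148 at chr17:46656910-46658207 (46657714 against 46657694). It lay further off at chr17:46653312-46656646 (46656336 against 46655971). At chr17:46661125-46663153 the summit in BirA replicate 1 was 46661264, against 46662439 for bio-zfp148 pooled. The 6 bio-zfp148 sites of HOXB had pooled fold enrichments of 20.7 to 54.8, the highest at chr17:46702906-46703254, with 6.12 over 4 tags and 22.7 over 15 tags in the replicates. The 1 bio-zfp281 site, chr17:46690538-46691249, had 11.1 pooled, 5.98 and 5.92.

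HOXA and HOXD each had few supported places. In HOXA, bio-zfp148 was highest at chr7:27152464-27154218 (40.4 pooled, 7.85 and 14.0), where bio-zfp281 had 23.8 pooled, 11.1 and 6.86, and BirA 9.72 pooled and 9.20 in replicate 1. bio-zfp281 was highest at chr7:27224483-27225178, with 47.5 pooled and 18.8 in replicate 1, but no peak in replicate 2, and BirA had 8.91 pooled there. The 2 HOXA sites were chr7:27219214-27220149 for bio-zfp148 (26.6 pooled, 10.1 and 6.25) and chr7:27200475-27201471 for bio-zfp281 (45.2 pooled, 17.7 and 4.53). In HOXD, bio-zfp148 was highest at chr2:176949180-176949574, with 83.6 pooled, 21.6 and 21.4, on only 22, 6 and 6 tags. No bio-zfp281 list had a peak there, and BirA replicate 2 had one of 8.64 over 5 tags. The 3 bio-zfp148 sites of HOXD, at 4.34, 22.0 and 31.6 kb, had 40.1, 16.0 and 64.6 pooled. bio-zfp281 was highest at chr2:177012746-177013186, with 34.5 pooled and 27.6 in replicate 1 and no peak in replicate 2.

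Of the highest BirA place per window in each BirA replicate, some lay at peaks of the tagged proteins and some apart from them. In BirA replicate 1, the highest places were chr7:27251233-27251730 in HOXA (14.7), chr12:54364723-54365096 in HOXC (12.9) and chr2:176983487-176984102 in HOXD (19.3), and none of them had a peak in a list of a tagged protein. In HOXB it was chr17:46680372-46683283 (16.2), where all 6 lists of tagged proteins had a peak, 29.3 for bio-zfp148 and 10.4 for bio-zfp281 pooled. In BirA replicate 2 the highest were chr7:27134008-27134578 (4.66), chr17:46631788-46634423 (5.86), chr12:54373119-54373757 (7.89) and chr2:176979007-176979493 (9.74). Of these, the HOXB place had peaks in all 6 lists of tagged proteins, with 38.4 for bio-zfp148 and 22.2 for bio-zfp281 pooled. The HOXC place had peaks of both proteins in 4 lists (6.99 for bio-zfp148 and 9.12 for bio-zfp281 pooled), the HOXA place only a pooled bio-zfp281 peak of 4.03, and the HOXD place none.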

How the data were processed

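Peak lists of 6 ChIP libraries (2 each for BirA, bio-zfp148 and bio-zfp281) and 3 pooled lists were used, and the 3 inputs only through the authors' calls. Chromatin was crosslinked in 1% formaldehyde and sonicated to 200 to 1000 bp, per the labels' protocols. Mapping to hg19 used Bowtie 1.0.0, per the submitters' processing notes. Peaks were called with MACS 1.4.0rc2 at a p cutoff of 1e-05, with at most 1 tag per position in the libraries and 2 in BirA replicate 1 and the pooled lists, per the file headers. For each peak the authors deposited a raw tag count, −log10 p times 10 (the p scale), a ratio of enrichment over the surroundings (fold enrichment) and the FDR (false discovery rate) in percent. These values were used only to describe or filter peaks within a list. Libraries held 810565 to 15956688 filtered tags, and the smallest peaks 4 to 12 tags, so single peaks are imprecise.

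Peaks overlapping a window by at least 1 bp were counted, with exact Poisson 95% intervals per Mb and exact Clopper-Pearson 95% intervals for shares. Whole-list densities use 2700 Mb. No test was run: with 2 libraries a group no exact test could pass, and the windows were chosen for their peaks. The members, lists and rules were chosen with earlier results of these data known. Named places are those with a site, the highest pooled fold of each protein per window, those in all 9 lists, and the highest of each BirA replicate. Counting was tested on simulated data. Alternatives were a p scale of at least 100, a fold of at least 10, an FDR of at most 5%, an overlap of 50% of the shorter peak, summits within 200 bp, windows widened by 50 kb, other uses of BirA, no replicate support, and each replicate left out, the other library's list then standing for the pooled one. The planned counts of genes with a peak at the start needed an hg19 annotation, which was not used here. Python 3.11.15, numpy 2.4.6, pandas 2.3.3, scipy 1.17.1 and matplotlib 3.10.9 were used.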

Additional observations from a re-analysis of the deposited data

How the results depend on the processing

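No paired analysis was possible because the results are counts of peaks that come from no test, and fewer than 3 libraries stand in each group. Of 307 alternatives for 37 results, 158 stayed close to the reported value and 149 moved. Counts and shares could only stay or move. Only the density of HOXB and HOXC over that of HOXA and HOXD, in the pooled lists of tagged proteins, could reverse, and it did not. A changed order of clusters elsewhere, such as HOXC above HOXB in sites, does not enter these numbers. At a fold of at least 10, bio-zfp281 peaks in the clusters fell from 141 to 64, BirA peaks from 60 to 11, and sites to 9 of bio-zfp148 (from 23) and 1 of bio-zfp281 (from 12); the shares that overlap the other protein became 51.1% and 64.1%, and those that overlap BirA 8.89% and 12.5%. At a p scale of at least 100, BirA had 12 peaks, bio-zfp281 22 sites, and 16.5% and 13.3% of bio-zfp148 and bio-zfp281 peaks overlapped BirA. At an FDR of at most 5%, BirA had 0 peaks in its pooled list, bio-zfp281 23 sites, and these shares were 13.0% and 8.09%. With summits within 200 bp, the shares with the other protein were 57.5% and 45.4% and with BirA 20.4% and 20.6%. Where BirA peaks counted only if both BirA replicates had them, there were 38 and 28 sites and shares of 3.54% and 2.84%. Without any BirA removal there were 42 and 32 sites, and without the need for replicates 73 and 94. Leaving out single replicates gave 54 to 72 bio-zfp148 peaks, 42 to 81 bio-zfp281 peaks and 16 to 53 BirA peaks. The density of the lower of HOXB and HOXC over the higher of HOXA and HOXD, 2.09 in bio-zfp148 and 1.44 in bio-zfp281, was then 1.74 to 3.59 and 1.93 to 2.96. With all replicates kept and other settings changed, it was 1.91 to 2.46 in bio-zfp148 and 1.09 to 1.71 in bio-zfp281, the 1.09 at a fold of at least 10. With a replicate left out, sites ranged from 31 to 42 and from 18 to 47, shares with the other protein from 30.1 to 94.4% and from 34.0 to 83.3%, and overlap with BirA between 12.4 and 42.6% of bio-zfp148 and between 7.80 and 57.1% of bio-zfp281 peaks. Where a replicate of the protein itself was left out, a site needed no support from another replicate. Of the changed shares with the other protein or BirA, only those with a single BirA replicate have a background. The causes were not tested. Peaks of 4 to 12 tags limit what these depths can resolve, and a place without a peak is not shown to be unbound.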

Other observations

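The G-rich strings GGGAGGG and GGGGNGGGG were also counted in the 250 bases before the start of genes that work with HOX genes or regulate them, beside 36.4% of all RefSeq promoters holding either. Among the TALE homeodomain proteins, partners of HOX proteins on DNA, 7 of 9 promoters held either string (77.8%). Of the promoters of Polycomb genes, which keep HOX clusters silent, 12 of 22 did (54.5%), and of the trithorax and elongation genes, which keep them active, 7 of 14 (50.0%). The ParaHox and CDX genes, relatives and upstream regulators of HOX genes, had 2 of 4 promoters with either, and the non-coding and neighbouring genes of the clusters 3 of 10 (30.0%). The median GC content of the promoters was 63.2% in TALE, 72.8% in Polycomb, 64.4% in trithorax and elongation, 51.2% in ParaHox and CDX, 65.0% in non-coding and neighbouring and 58.8% in HOX genes, against 58.0% over all promoters, and its part in the shares was not tested. No peak was placed at any of these genes.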
